A study of Mus musculus with 4 samples.

Results

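A set of 10 genes of osteoclast differentiation and bone resorption was followed across lung and synovium, namely Acp5, Ctsk, Mmp9, Nfatc1, Ocstamp, Dcstamp, Atp6v0d2, Oscar, Itgb3 and Calcr. They were chosen by their symbols for their known roles in osteoclasts, with earlier results of these data known, and all 10 were found among the 32285 genes of the count matrices. Their UMIs (unique molecular identifiers, each counting 1 captured RNA molecule) were counted in every deposited barcode, with no upper limit on detected genes, because osteoclasts are large multinucleated cells that such a limit can remove. RNA of single cells was captured in droplets and sequenced from its 3' end in TNF+ mice, C57BL/6 animals of a line that carry a human TNF transgene and develop inflammatory erosive arthritis with pulmonary vascular disease, and in TNF- littermates without the transgene. All mice were 4 months old and female, and tissue was pooled by genotype from 3 to 5 animals for lung and from 5 to 10 animals for synovium, digested with enzymes and sorted for viable cells. The data hold 4 libraries (TNF- synovium, TNF+ synovium, TNF- lung and TNF+ lung), 1 per group, so no difference could be tested against replicates and no p-value is given. Reads were not matched to the human gene, and the expression of the transgene itself was not measured.

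Osteoclasts form when monocyte precursors receive RANK ligand and costimulation through ITAM adaptors, which together induce Nfatc1, the master transcription factor of the lineage. Precursors then fuse into multinucleated cells, attach to bone through the integrin alphaV beta3, acidify the sealed space beneath them with a vacuolar proton pump and dissolve the matrix with secreted proteases. In inflammatory arthritis they are the cells that erode bone at the joint margin, while several of the same genes are also used by tissue macrophages, lymphocytes, fibroblasts, platelets or muscle.

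The libraries held between 48454234 and 155989523 UMIs in 4246 to 11243 barcodes. Between 5 and 21 barcode sequences were shared by any pair of libraries. Levels are given as CPM (UMIs of a gene per 1000000 summed UMIs) with 95% intervals in parentheses, and differences as log2 ratios of TNF+ over TNF-. All intervals cover counting error only, so they leave out how much mice or library preparations vary. The TNF+ synovium stood apart, with 17.6% of barcodes over 20% mitochondrial UMIs against 1.41% to 3.78% in the other libraries. The median log2 ratio over all genes was -0.18 in the whole synovium, -0.32 in the whole lung, -0.23 in synovial myeloid cells and -0.16 in lung myeloid cells. Ratios near those values are therefore not departures from the bulk of genes, and the ratio of -0.13 for Dcstamp in the whole synovium turned positive relative to that median. A higher level in a whole library cannot be told apart as more cells of a type or more RNA per cell.

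In the synovium, 6 of the 10 genes were at least 2-fold higher in the TNF+ library (Acp5, Ctsk, Mmp9, Ocstamp, Atp6v0d2 and Oscar), where 11.9% of all genes with at least 20 UMIs passed that fold. Calcr was at least 2-fold lower, as 22.3% of all genes were. In the lung, Acp5, Ctsk, Ocstamp and Dcstamp were at least 2-fold higher, against 5.47% of all genes. Oscar and Calcr were at least 2-fold lower there, against 25.8% of all genes.

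**Figure D1:**
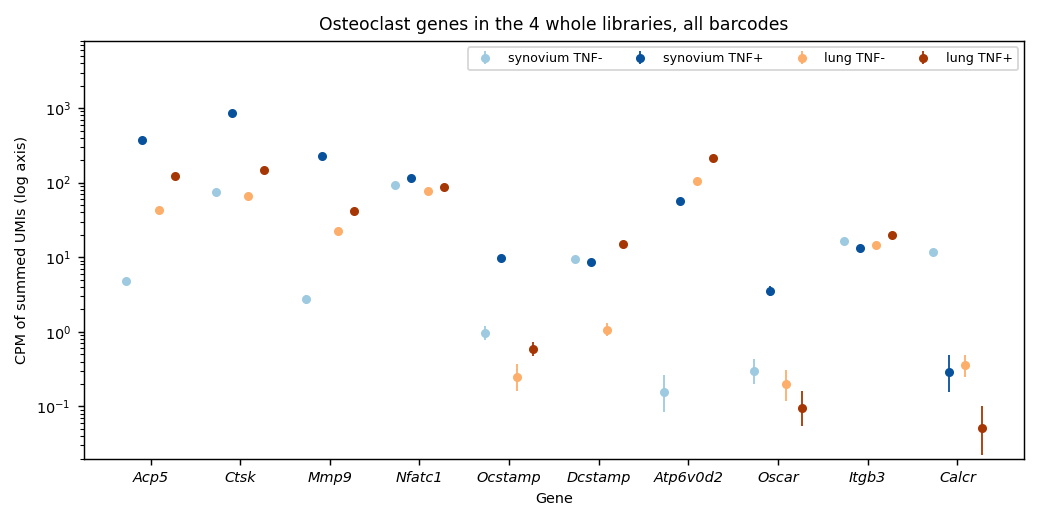
Level of each of the 10 genes (CPM of summed UMIs, logarithmic axis) in the 4 libraries, with 95% exact Poisson intervals that cover counting error only. In the TNF+ synovium Acp5, Ctsk, Mmp9 and Atp6v0d2 stand well above the TNF- synovium, while Calcr is below it and Nfatc1, Dcstamp and Itgb3 lie close in both.

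Acp5 (ENSMUSG00000001348, GRCm38 chr9:22126727-22135711, minus strand) encodes tartrate-resistant acid phosphatase, the enzyme behind the TRAP stain for osteoclasts. Its synovial levels were 4.87 CPM (4.42 to 5.34) without and 376 CPM (371 to 382) with the transgene, and its lung levels 43.6 CPM (42.3 to 44.9) and 123 CPM (121 to 124). The TNF- synovium was lowest and the TNF+ synovium highest, with both lungs in between. The log2 ratio was 6.27 (6.14 to 6.41) in the synovium and 1.49 (1.45 to 1.54) in the lung.

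Ctsk (ENSMUSG00000028111, GRCm38 chr3:95499256-95509362, plus strand) encodes cathepsin K, the main collagen-degrading protease of osteoclasts. The synovial libraries had 74.1 CPM (72.3 to 75.8) (TNF-) and 861 CPM (853 to 869) (TNF+), and the lung libraries 66.3 CPM (64.7 to 68.0) (TNF-) and 149 CPM (147 to 151) (TNF+). Both TNF- libraries were at similar levels, and the TNF+ synovium was highest. The log2 ratio was 3.54 (3.50 to 3.58) in the synovium and 1.16 (1.12 to 1.21) in the lung.

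Mmp9 (ENSMUSG00000017737, GRCm38 chr2:164940780-164955850, plus strand) encodes gelatinase B, a matrix metalloprotease of osteoclasts and neutrophils. Synovial levels were 2.72 CPM (2.39 to 3.08) in TNF- and 230 CPM (226 to 235) in TNF+, and lung levels 22.7 CPM (21.7 to 23.6) in TNF- and 41.4 CPM (40.4 to 42.4) in TNF+. The log2 ratio of 6.40 (6.22 to 6.59) in the synovium compares with 0.87 (0.80 to 0.94) in the lung. Atp6v0d2 (ENSMUSG00000028238, GRCm38 chr4:19876841-19922605, minus strand) encodes the d2 subunit of the vacuolar proton pump, which serves acid secretion and cell fusion. It had only 14 UMIs (0.155 CPM) in the TNF- synovium and 2726 (56.3 CPM) in the TNF+ synovium, a log2 ratio of 8.51 (7.76 to 9.38). Both lungs exceeded the TNF+ synovium, since the TNF- lung had 106 CPM (104 to 108) and the TNF+ lung 211 CPM (209 to 213).

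Nfatc1 (ENSMUSG00000033016, chromosome 18), the transcription factor that drives the differentiation program, differed little between libraries. The TNF- synovium had 93.6 CPM (91.7 to 95.7), the TNF+ synovium 116 CPM (113 to 119), the TNF- lung 77.7 CPM (75.9 to 79.5) and the TNF+ lung 87.1 CPM (85.6 to 88.5). An antisense gene overlaps Nfatc1 and another overlaps Acp5 on the opposite strand, and the 3' protocol keeps strand.

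Ocstamp (ENSMUSG00000027670, GRCm38 chr2:165393760-165400405, minus strand) and Dcstamp (ENSMUSG00000022303, GRCm38 chr15:39745930-39760938, plus strand) encode the transmembrane proteins required for fusion of precursors. Ocstamp had 88 UMIs (0.973 CPM) without and 473 UMIs (9.76 CPM) with the transgene in synovium, beside 24 and 92 UMIs (0.590 CPM) for the lungs of either genotype. Its log2 ratio was 3.33 (3.00 to 3.67) in the synovium and 1.24 (0.58 to 1.95) in the lung. Dcstamp behaved otherwise, with synovial levels of 9.37 CPM (8.75 to 10.0, TNF-) and 8.59 CPM (7.78 to 9.45, TNF+), which overlap within counting error. Its lung levels were 1.07 CPM (0.875 to 1.30, TNF-) and 15.2 CPM (14.6 to 15.8, TNF+), a log2 ratio of 3.83 (3.54 to 4.13).

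Oscar (ENSMUSG00000054594, GRCm38 chr7:3609813-3616157, minus strand), a collagen receptor that costimulates osteoclast precursors, was rare in every library. It had 27 UMIs in the TNF- synovium, 172 in the TNF+ synovium, 19 in the TNF- lung and 15 in the TNF+ lung. The TNF+ synovium alone exceeded the rest, at a log2 ratio of 3.57 (2.98 to 4.21). In the lung, where both counts were small, the interval of -1.04 (-2.12 to 0.01) reached 0.

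Itgb3 (ENSMUSG00000020689, GRCm38 chr11:104608000-104670476, plus strand) encodes the beta3 integrin of the sealing zone. Synovial levels were 16.5 CPM (15.7 to 17.4, TNF-) and 13.3 CPM (12.3 to 14.4, TNF+), and lung levels 14.7 CPM (14.0 to 15.5, TNF-) and 19.7 CPM (19.0 to 20.4, TNF+). The libraries lay within a narrow range, slightly lower in the TNF+ synovium and slightly higher in the TNF+ lung. Calcr (ENSMUSG00000023964, GRCm38 chr6:3685680-3764714, minus strand) encodes the calcitonin receptor, through which calcitonin restrains osteoclasts and which also marks muscle stem cells. It had 1048 UMIs (11.6 CPM) in the TNF- synovium, 14 in the TNF+ synovium, 34 in the TNF- lung and 8 in the TNF+ lung. The log2 ratio was -5.33 (-6.20 to -4.57) in the synovium and -2.79 (-4.11 to -1.65) in the lung.

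Promoter sequence of RefSeq (GRCm38.p6) was at hand for 4 of the 10 genes, and 3 windows of the 250 bases before a start are shown because Acp5, Ctsk and Oscar were among the genes that were higher in the same synovial cells. They were searched on both strands for TGANTCA and its subset TGACTCA (AP-1), GAGGAA (PU.1), TGGAAA (NFAT), CACGTG and CATGTG (MITF and related factors), and capitals mark matches. For Acp5, the most upstream of 3 annotated starts is used.

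Acp5, chr9:22135747-22135996, minus strand: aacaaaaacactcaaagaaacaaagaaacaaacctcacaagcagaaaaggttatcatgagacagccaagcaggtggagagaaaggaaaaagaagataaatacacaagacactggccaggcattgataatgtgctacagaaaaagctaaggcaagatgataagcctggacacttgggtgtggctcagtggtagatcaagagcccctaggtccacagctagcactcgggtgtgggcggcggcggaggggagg

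Ctsk, chr3:95498960-95499209, plus strand: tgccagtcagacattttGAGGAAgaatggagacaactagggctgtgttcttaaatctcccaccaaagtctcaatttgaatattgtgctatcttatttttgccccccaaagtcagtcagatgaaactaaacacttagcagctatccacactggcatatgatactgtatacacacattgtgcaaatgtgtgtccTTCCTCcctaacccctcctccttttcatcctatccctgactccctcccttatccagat

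Oscar, chr7:3616158-3616407, minus strand: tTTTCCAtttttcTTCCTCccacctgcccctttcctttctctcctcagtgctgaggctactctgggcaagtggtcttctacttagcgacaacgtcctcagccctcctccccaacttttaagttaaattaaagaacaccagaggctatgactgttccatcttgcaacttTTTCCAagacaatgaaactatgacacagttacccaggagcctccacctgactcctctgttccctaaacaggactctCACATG

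The Ctsk window held GAGGAA on the gene's strand 233 bases before the start and on the opposite strand 58 bases before it. The Oscar window held, all on the opposite strand, GAGGAA at 237, TGGAAA at 249 and 82, and CATGTG at 6 bases before the start. This Acp5 window held none of the motifs, and its most downstream start held TGGAAA at 117 and CATGTG at 90 bases, both on the opposite strand. Among 32851 promoters of the same length, GAGGAA occurred in 23.3%, TGGAAA in 18.6% and CATGTG in 12.3%, so such matches are common. TGANTCA (6.75% of promoters), TGACTCA (4.46%) and CACGTG (6.02%) were not in these 3 windows.

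Barcodes were grouped into cell types by clustering that left the 10 genes out, and each type name stands for cells like that type. In the synovium, 1 cluster of 102 barcodes, all from the TNF+ library, detected 10 of 12 osteoclast markers that are not among the 10 genes 2-fold above the other clusters, and is called osteoclast-like. Its leading genes included Slc9b2, Rufy4 and Mt3. It came from a finer clustering chosen after the values were seen, and in the coarser clustering it lay inside a cluster of 715 barcodes (707 TNF+, 8 TNF-) with macrophage and osteoclast markers side by side. With 1 library per group, a cluster held by 1 library may reflect that library.

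The 102 osteoclast-like barcodes, 2.40% of the TNF+ synovial barcodes, held 94.1% of that library's Mmp9 UMIs, 87.2% of Oscar, 84.8% of Acp5, 78.7% of Atp6v0d2, 77.8% of Ocstamp, 67.3% of Ctsk and 57.5% of Dcstamp UMIs. They held 34.8% of Itgb3 and 24.8% of Nfatc1 UMIs. Their levels were 6393 CPM for Acp5, 11610 CPM for Ctsk, 4348 CPM for Mmp9, 887 CPM for Atp6v0d2, 576 CPM for Nfatc1, 152 CPM for Ocstamp, 98.9 CPM for Dcstamp, 93.1 CPM for Itgb3 and 62.1 CPM for Oscar. Calcr had 7 UMIs in 2 of these barcodes. Since the cluster was cut from the same cells, these levels are a description.

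The cluster was uneven. Of its 102 barcodes, 27 held none of the 10 genes and 44 held 5 or more. The 58 barcodes with fewer than 5 had a median of 1013 UMIs, and the 44 with 5 or more a median of 40032 UMIs. Acp5 was found in 66 barcodes, with a median of 12 UMIs and a highest value of 1753. Ctsk was found in 65 (highest 3642), Nfatc1 in 63 (highest 72), Atp6v0d2 in 54 (highest 181), Mmp9 in 41 (highest 1807), Ocstamp in 40 (highest 45), Dcstamp in 32 (highest 27), Itgb3 in 27 (highest 54) and Oscar in 16 (highest 41). A few barcodes carried most of the RNA, and the 10 highest for each gene held 57.6% of the cluster's Acp5, 52.3% of its Ctsk, 75.8% of its Mmp9 and 94.0% of its Oscar UMIs. Detection followed depth, with Ocstamp in 35 of the 51 deeper and 5 of the 51 shallower barcodes. Of the 102, 37 had over 5000 genes, 2 ranked as likely doublets and 0 had over 20% mitochondrial UMIs. Genes of other cell types were also present, with fibroblast markers summing to 407 CPM and muscle markers to 256 CPM, while 10 of 16 T cell markers were at 0. Their part in these levels was not tested.

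Other genes of the pathway in the osteoclast-like barcodes were set against the other 1124 TNF+ synovial myeloid barcodes, by a list of 42 genes grouped by role. Of the 41 with enough UMIs, 10 were at least 2-fold higher and 12 at least 2-fold lower, beside 19.0% and 20.5% of all genes. The acid and chloride secretion genes stood on the higher side, with 5 of 7 past the fold. Among them were Slc4a2, the bicarbonate and chloride exchanger (log2 ratio 2.61), Snx10, a sorting nexin (2.30), Tcirg1, the a3 subunit of the proton pump (1.83), and Ostm1, the partner of the chloride channel Clcn7 (1.18). In RANK signalling and transcription, Ppargc1b, a coactivator of mitochondrial biogenesis, was at 4.68, Tnfrsf11a, the gene of RANK itself, at 2.16 and Prdm1, a repressor of macrophage genes, at 1.32. Src, the kinase needed for the ruffled border, was at 2.38 and the membrane protease Mmp14 at 1.32.

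The genes that restrain differentiation were on the lower side, with 3 of the 3 that had enough UMIs past the fold. Of all genes, 20.5% were lower and 19.0% higher by that fold, and each role holds few genes. Irf8 was at a log2 ratio of -2.74, Bcl6 at -2.69 and Id2 at -1.80. Of 6 other cell fusion genes, 0 were at least 2-fold higher and 2 lower, the tetraspanin Cd81 (-2.77) and the metalloprotease Adam8 (-1.97). Of 5 attachment genes, 1 (Src) was higher and 2 lower, the exchange factor Vav3 (-2.64) and the ubiquitin ligase Cbl (-1.34). Of 5 other matrix degradation genes, 1 (Mmp14) was higher and 2 lower, the elastase Mmp12 (-4.47) and the cathepsin Ctsb (-1.02). Of 6 genes of ITAM costimulation, 0 were higher and 2 lower, the phospholipase Plcg2 (-1.24) and the adaptor Fcer1g (-1.16). These are descriptions of 1 library without a test.

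**Figure D2:**
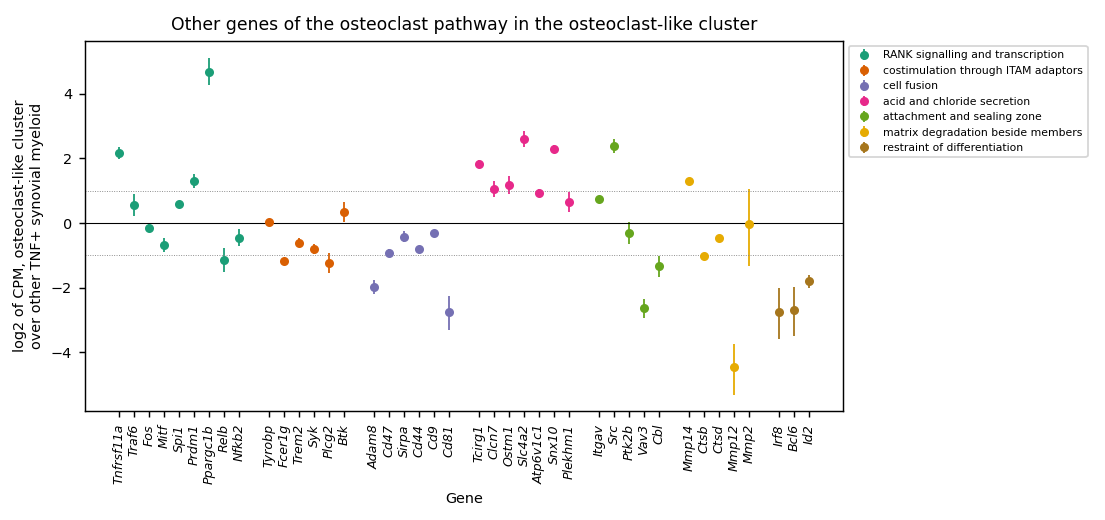
Log2 ratio of CPM in the 102 osteoclast-like barcodes over the other 1124 TNF+ synovial myeloid barcodes for pathway genes grouped by role, with 95% counting intervals. On the vertical axis, Slc4a2, Snx10 and Tcirg1 lie above 0, and Irf8, Bcl6 and Id2 below it.

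By genotype, 8 of the 10 genes were at least 2-fold higher in TNF+ than in TNF- synovial myeloid cells (1226 and 696 barcodes), against 8.71% of all genes, and Dcstamp and Calcr were at least 2-fold lower, against 25.4%. A TNF- dendritic cluster of 41 barcodes in this class also held muscle markers. Without it, a step added after the data were seen, 9 genes could be compared, and Calcr was not among them. Of these, 8 were higher by that fold (9.23% of all genes) and Dcstamp alone was lower. The makeup of the class differed, since dendritic cells were 435 of the 696 TNF- but 86 of the 1226 TNF+ barcodes. Macrophages or monocytes were 226 and 410, an unnamed myeloid type 8 and 605, neutrophils 27 and 23, and the osteoclast-like cluster 0 and 102. The part of that makeup in the ratios was not tested, with or without the osteoclast-like cluster. Ctsk had 5.22 CPM in TNF- and 1668 CPM in TNF+ cells, which gave a log2 ratio of 8.32 (7.99 to 8.68). Atp6v0d2 had 8 and 2325 UMIs, a log2 ratio of 7.71 (6.73 to 8.92), and Acp5 was at 8.82 and 857 CPM, a log2 ratio of 6.60 (6.34 to 6.87). Mmp9 followed with 5.13 (4.93 to 5.32), Ocstamp with 2.17 (1.80 to 2.55), Itgb3 with 2.08 (1.61 to 2.58) and Nfatc1 with 1.64 (1.49 to 1.78). Oscar had 0 UMIs in the TNF- and 150 in the TNF+ cells, so its log2 ratio was at least 5.17 against a floor of 3 UMIs.

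Without the osteoclast-like cluster, a step added after the data were seen, 3 of the 9 genes that could be compared were at least 2-fold higher, against 7.66% of all genes, and Dcstamp and Calcr were at least 2-fold lower, against 26.2%. That step kept the dendritic cluster of 41 barcodes with muscle markers. The higher ones were Ctsk at a log2 ratio of 5.35 (5.01 to 5.71), Atp6v0d2 at 4.21 (3.20 to 5.45) and Acp5 at 2.39 (2.11 to 2.68). Ocstamp was then at -0.28 (-0.78 to 0.22), with 70 UMIs in either library, Nfatc1 at 0.30 (0.13 to 0.46), Mmp9 at -0.64 (-0.94 to -0.35) and Itgb3 at -0.90 (-1.64 to -0.18). Oscar had 0 UMIs in both. Within the myeloid class, Ctsk, Atp6v0d2 and Acp5 were thus the genes still at least 2-fold higher, while Mmp9, Nfatc1, Ocstamp and Itgb3 no longer passed that fold.

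Over the whole synovium without the cluster, 5 of the 10 genes were at least 2-fold higher, against 11.8% of all genes, and Dcstamp and Calcr at least 2-fold lower, against 21.7%. That step kept 45 TNF+ cycling barcodes, of which 13 held 5 or more of the 10 genes. The part of these cycling barcodes in the remaining ratios was not tested. Atp6v0d2 was at a log2 ratio of 6.35 (5.59 to 7.23), Acp5 at 3.63 (3.49 to 3.78), Mmp9 at 2.39 (2.17 to 2.60) and Ocstamp at 1.23 (0.81 to 1.65), and Ctsk had 74.1 CPM without and 297 CPM with the transgene. Mmp9 and Ocstamp thus passed the fold over the whole library without the cluster but not within its myeloid class. Oscar, at 0.68 (-0.20 to 1.55), no longer passed the fold, and Dcstamp was at -1.28 (-1.53 to -1.05).

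**Figure D3:**
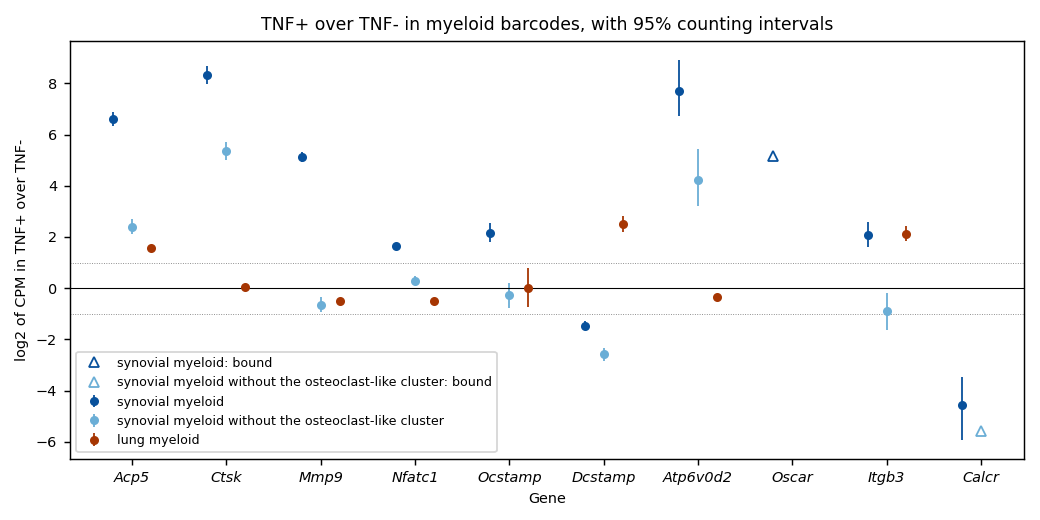
Log2 ratio of TNF+ over TNF- in CPM for each of the 10 genes in myeloid cells of the synovium (with and without the osteoclast-like cluster) and of the lung, with 95% counting intervals, and open markers for bounds against a floor of 3 UMIs. On the vertical axis, Ctsk, Atp6v0d2 and Acp5 lie above 0 in the synovium with and without the cluster, and Mmp9 and Itgb3 move below 0 without it.

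Of the pathway list in synovial myeloid cells, 14 of 41 genes were at least 2-fold higher in TNF+ and 5 lower, against the same 8.71% and 25.4% of all genes, with a median log2 ratio of 0.44 beside -0.23 over all genes. Mmp14 was at 14.3 and 326 CPM (log2 ratio 4.51, 4.30 to 4.72), Src at 2.87 and 39.9 CPM (3.80, 3.34 to 4.30) and Trem2, a receptor that signals through Tyrobp, at 22.0 and 305 CPM (3.80, 3.63 to 3.97). Of 7 acid and chloride genes, 4 were higher, namely Atp6v1c1 (log2 ratio 2.27), Clcn7 (2.03), Tcirg1 (1.83) and Snx10 (1.06). Mmp12 (3.32), the lysosomal protease Ctsd (2.25), Ppargc1b (1.99), the tetraspanin Cd9 (1.49), Tnfrsf11a (1.13) and Itgav, the alphaV partner of Itgb3 (1.09), were higher as well. Lower in the TNF+ cells were Mmp2 (-3.24), Fos (-1.70), Irf8 (-1.67), Bcl6 (-1.63) and Cd81 (-1.09). Dendritic cells were 435 of the 696 TNF- and 86 of the 1226 TNF+ barcodes of the class. The part of that makeup, and of RNA from other cell types, in the pathway ratios was not tested.

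Synovial macrophage or monocyte-like cells (226 TNF- and 410 TNF+ barcodes) carried part of the resorption signal. Acp5, Ctsk and Atp6v0d2 passed 2-fold of 8 genes compared, against 6.41% of all genes. Ctsk was at 10.7 and 315 CPM (log2 ratio 4.88, 4.39 to 5.42), Atp6v0d2 at 1.89 and 22.8 CPM (3.60, 2.43 to 5.07) and Acp5 at 20.1 and 60.5 CPM (log2 ratio 1.59). The unnamed myeloid type, with 605 TNF+ barcodes, is outside this type. At the finer resolution, a cluster of 601 TNF+ and 8 TNF- barcodes led by Clec4n and Cxcl2 took the macrophage or monocyte name. Within the 410 TNF+ barcodes counted here, the signal lay mostly in 1 cluster led by C1qa, C1qc and Folr2. Ctsk was there at 468 CPM (445 to 493) over 196 TNF+ barcodes and 8.59 CPM (4.12 to 15.8) in 81 TNF- barcodes. In the other cluster, led by Cd300e and Treml4 (145 TNF- and 214 TNF+ barcodes), 0 of 4 genes compared passed 2-fold. Of all genes there, 5.45% were higher and 13.8% lower. In a finer cluster led by the same genes (96 and 187 barcodes), Itgb3 was higher and Acp5 lower of 4, against 6.06% and 13.5%. The part of these clusters in the ratios of the type was not tested.

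**Figure D4:**
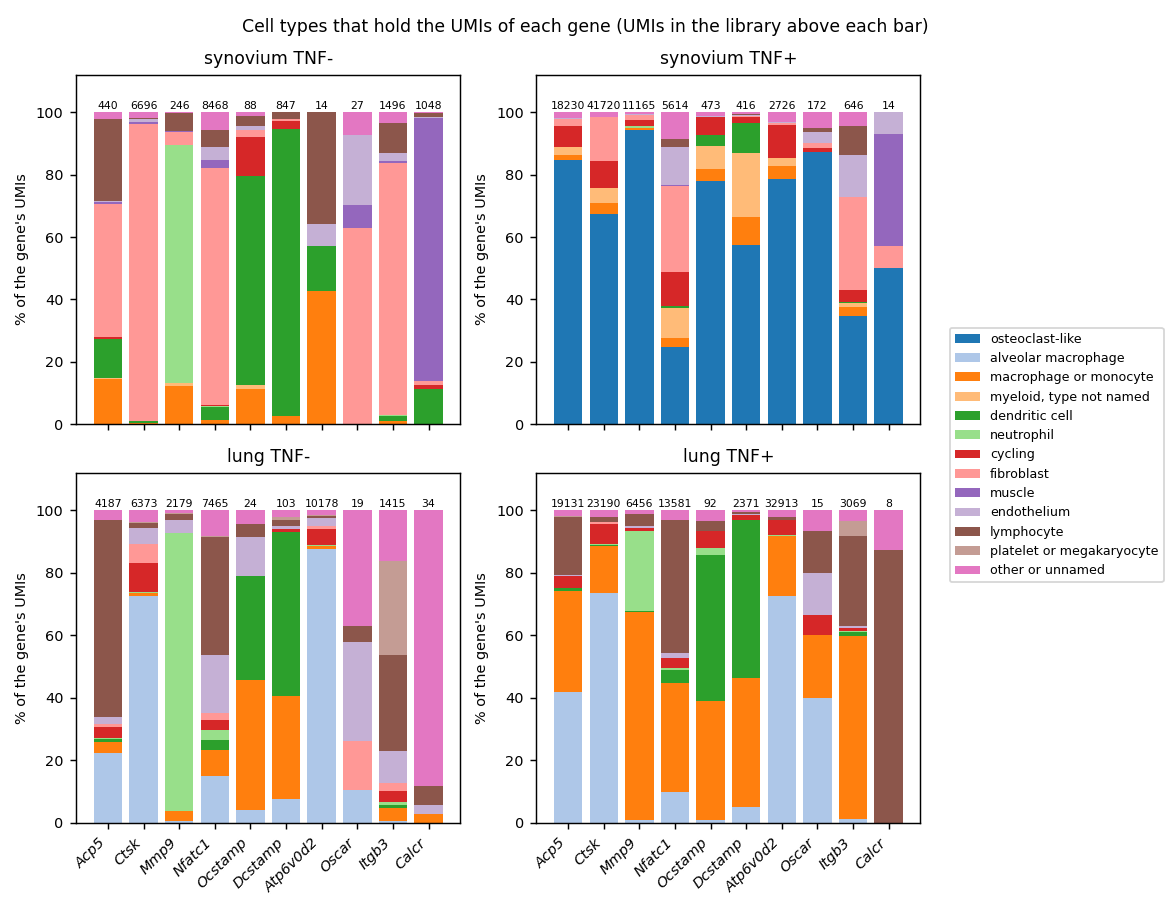
Share of each library's UMIs of each gene (percent) by cell type in the 4 libraries. The osteoclast-like cluster holds most Acp5, Mmp9, Oscar and Atp6v0d2 UMIs of the TNF+ synovium, fibroblasts hold 6363 of 6696 Ctsk UMIs of the TNF- synovium and alveolar macrophages most Atp6v0d2 UMIs of both lungs.

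Outside the myeloid class, fibroblasts held most UMIs of Ctsk, Itgb3 and Nfatc1 in the TNF- synovium. They held 6363 of its 6696 Ctsk UMIs, 80.6% of its Itgb3 and 75.8% of its Nfatc1 UMIs. Of that library's 90427403 UMIs of all genes, they held 56779973. Levels in the whole library were 74.1 CPM for Ctsk, 16.5 CPM for Itgb3 and 93.6 CPM for Nfatc1. Ctsk had 112 CPM (109 to 115) over 3582 TNF- barcodes and 491 CPM (478 to 503) over 713 TNF+ fibroblast barcodes, a log2 ratio of 2.13 (2.08 to 2.18). Acp5 was at 3.31 and 34.0 CPM (3.36, 3.11 to 3.62), and Mmp9 had 10 and 182 UMIs (6.43, 5.52 to 7.51). Nfatc1 (113 and 129 CPM) and Itgb3 (21.2 and 16.0 CPM) differed less. Acp5, Ctsk, Mmp9 and Atp6v0d2 passed 2-fold of 7 genes compared, against 9.94% of all genes. Different clusters made up the fibroblasts of either genotype, since 468 of the 713 TNF+ but only 3 of the 3582 TNF- barcodes were in a cluster led by Mmp13, Saa3 and Ibsp, which held 391 of the 408 TNF+ fibroblast Acp5 UMIs and 176 of the 182 Mmp9 UMIs. Endothelium, which should lack Acp5, had it in 3.81% (2.43 to 5.67) of TNF+ synovial barcodes, never above 1 UMI. The share in TNF+ fibroblasts was 24.8%. Median depths were 6946 and 12147 UMIs, so the shares are not at equal depth. Acp5 was at least 2-fold higher in TNF+ endothelium too (1 of 4 genes compared, against 7.93% of all genes). In Schwann cell-like barcodes Acp5, Ctsk and Atp6v0d2 were (3 of 4, against 11.3%), and in lymphocytes 0 of 5 (6.97%). The part of RNA from other cell types in the fibroblast levels was not tested.

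A cluster of 45 TNF+ and 32 TNF- cycling synovial barcodes also held osteoclast genes. In the TNF+ barcodes Ctsk was at 1757 CPM (1700 to 1816), Acp5 at 603 CPM (569 to 637), Nfatc1 at 308 CPM (284 to 333), Atp6v0d2 at 142 CPM (126 to 160) and Mmp9 at 101 CPM (87.5 to 116). In the TNF- barcodes Ctsk had 1 UMI, Acp5 3, and Mmp9 and Atp6v0d2 0. The 13 TNF+ barcodes with 5 or more of the 10 genes detected 9 of the 12 osteoclast markers at a sum of 1747 CPM, and fibroblast markers at a sum of 4710 CPM, whose part was not tested.

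Dcstamp UMIs lay largely in dendritic cells outside the TNF+ synovium. Dendritic cell-like barcodes held 91.8% of its UMIs in the TNF- synovium, 52.4% in the TNF- lung and 50.4% in the TNF+ lung. In synovial dendritic barcodes its level was 77.1 CPM (71.8 to 82.7; 435 TNF- barcodes) and 29.3 CPM (20.9 to 40.1; 86 TNF+ barcodes). In lung dendritic barcodes it was 14.6 CPM (54 UMIs in 163 TNF- barcodes) and 102 CPM (1194 UMIs in 483 TNF+ barcodes). The genotypes thus differed in opposite directions, with log2 ratios of -1.39 (-1.90 to -0.93) and 2.81 (2.41 to 3.23). In the synovium the clusters differed, since a finer cluster led by Cd209a and Mgl2 at 95.8 CPM of Dcstamp held 208 TNF- and 6 TNF+ barcodes, while in one with Xcr1 and Ccr7 (175 and 80 barcodes) Dcstamp was at 22.6 and 25.3 CPM. A small TNF- cluster of 41 barcodes at a median of 47302 UMIs held 265 of the 778 TNF- dendritic Dcstamp UMIs beside 15 of 16 muscle markers at a sum of 1752 CPM. The part of that mixture was not tested.

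Most Calcr UMIs were in muscle cells. In the TNF- synovium, muscle cell-like barcodes held 882 of its 1048 UMIs, at 152 CPM (142 to 162), and 30.8% of 604 such barcodes had a UMI. The TNF+ synovium had only 32 muscle barcodes, with 5 Calcr UMIs. The same small dendritic cluster held a further 115 Calcr UMIs, of 119 in all TNF- synovial myeloid cells. In the lung, 30 of the 34 TNF- UMIs were in unnamed barcodes and 7 of the 8 TNF+ UMIs in T cell barcodes.

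In the lung, alveolar macrophages expressed several of the resorption genes. Atp6v0d2 was found in 99.5% of 416 TNF- and 99.8% of 592 TNF+ alveolar macrophage-like barcodes, at 812 CPM (795 to 829) and 1070 CPM. They held 87.7% of all Atp6v0d2 UMIs of the TNF- and 72.7% of the TNF+ lung. Ctsk was at 422 CPM (410 to 434) and 764 CPM (752 to 775), a log2 ratio of 0.86 (0.81 to 0.90). Acp5 was at 85.4 CPM (80.1 to 91.1) and 359 CPM (352 to 367), with a UMI in 75.5% and 98.7% of barcodes and a log2 ratio of 2.07 (1.97 to 2.17).

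Of 7 genes with enough UMIs in these macrophages, 3 were at least 2-fold higher in TNF+ (Acp5, Mmp9 and Dcstamp), against 4.17% of all genes, and 0 were lower by that fold, against 11.6%. Dcstamp was at 0.728 and 5.54 CPM (8 and 124 UMIs), a log2 ratio of 2.93 (1.91 to 4.17), and Mmp9 at 1.37 and 3.04 CPM (15 and 68 UMIs), a log2 ratio of 1.16 (0.33 to 2.07). Nfatc1 was at 101 CPM (95.3 to 107) in TNF- and 59.8 CPM (56.6 to 63.0) in TNF+, a log2 ratio of -0.76, and Itgb3 at 0.819 and 1.52 CPM, with an interval that reached 0. Oscar had 2 and 6 UMIs, Ocstamp 1 and 1, and Calcr 0 in both, which by the limit of 3 counts allows a share of barcodes with a UMI of up to 0.721% in the TNF- and 0.507% in the TNF+ cells. Endothelium, which should lack Atp6v0d2 and Acp5, had an Atp6v0d2 UMI in 1.72% and 6.09% and an Acp5 UMI in 2.39% and 7.66% of TNF- and TNF+ lung barcodes, at medians of 6134 and 1061 UMIs. The part of RNA from other cells in the alveolar macrophage levels was not tested. The alveolar macrophages of the genotypes fell into different clusters, with 399 of the 416 TNF- barcodes in one led by Acaa1b and Cpne5 and 565 of the 592 TNF+ barcodes in another led by Egfem1 and Ch25h. Median depth also differed, at 26058 and 37923 UMIs per barcode.

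Other lung cells carried single genes or, in some macrophage or monocyte clusters, several of them. Neutrophils held 88.9% of Mmp9 UMIs in the TNF- lung, and their Mmp9 levels overlapped within counting error (1246 CPM, 1191 to 1303, and 1280 CPM, 1219 to 1343, for TNF- and TNF+). In the TNF+ lung, macrophage or monocyte-like cells held 66.3% of Mmp9 UMIs, chiefly 1 cluster led by Cxcl13, Ccl8 and Folr2, at 317 CPM over 467 TNF+ barcodes against 55.6 CPM over 75 TNF- barcodes. In that cluster Acp5 was higher as well (log2 ratio 3.32), and Dcstamp (9 and 11 UMIs, -3.01) and Ctsk (15 and 72 UMIs, -1.04) were at least 2-fold lower in CPM. A cluster led by H2-M2, Mmp12, Gpnmb and Trem2 (519 TNF+ and 14 TNF- barcodes) had Atp6v0d2 at 526 CPM, Acp5 at 297 CPM, Ctsk at 271 CPM and Dcstamp at 80.5 CPM in its TNF+ barcodes. Acp5 was also found in lymphocytes, with 138 CPM (TNF-) and 123 CPM (TNF+) for T cells and 104 and 70.8 CPM for B or plasma cells. Itgb3 was at 1048 and 677 CPM in platelets or megakaryocytes, and in a monocyte cluster led by Cd300e and Treml4 it was at 15.4 and 56.7 CPM.

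Across all lung myeloid cells (1401 TNF- and 5398 TNF+ barcodes), 3 of the 8 genes with enough UMIs were at least 2-fold higher, against 5.05% of all genes, and 0 were lower by that fold, against 15.5%. Dcstamp was at a log2 ratio of 2.49 (2.20 to 2.80), Itgb3 at 2.11 (1.83 to 2.41) and Acp5 at 1.56 (1.48 to 1.65). Ctsk was at 0.04 (-0.00 to 0.09), Atp6v0d2 at -0.34 (-0.38 to -0.31), Mmp9 at -0.51 (-0.58 to -0.44) and Nfatc1 at -0.50 (-0.57 to -0.43). Within types the values differed from these. In macrophages or monocytes (498 and 4134 barcodes), 6 of 8 genes were at least 2-fold higher, against 6.83% of all genes, and Ocstamp (10 and 35 UMIs) was lower, against 11.2%. The log2 ratios there were 2.70 (2.30 to 3.12) for Ctsk, 2.69 (2.40 to 3.00) for Atp6v0d2, 2.64 (2.30 to 3.01) for Mmp9, 1.65 (1.27 to 2.06) for Itgb3, 1.51 (1.02 to 2.05) for Dcstamp and -1.53 (-2.57 to -0.35) for Ocstamp, and Acp5 had 25.9 and 104 CPM. That type also held different clusters by genotype, such as 14 TNF- and 519 TNF+ barcodes in the cluster led by H2-M2. In its largest cluster (278 and 2755 barcodes), Dcstamp, Atp6v0d2 and Itgb3 were higher by that fold of 7 genes, against 5.56% of all genes. In a cluster led by F13a1, Acp5, Ctsk, Mmp9 and Atp6v0d2 were so of 6, against 6.9%. Ctsk was lower in the cluster led by Cxcl13. The part of these clusters was not tested. Among lung cells outside the myeloid class, Acp5, Ctsk, Mmp9 and Atp6v0d2 were also higher by that fold in mural cells, of 6 genes, against 6.3%. Ctsk, Mmp9 and Atp6v0d2 were so in B or plasma cells, of 6, against 6.97%, and Mmp9 and Atp6v0d2 in T cells, of 6, against 6.48%. In fibroblasts 0 of 5 were, against 8.08%. The part of RNA from other cell types in the myeloid ratios was not tested. Atp6v0d2 was at 0.40 (0.36 to 0.43) in alveolar macrophages. The makeup of the class differed as well, since alveolar macrophages were 416 of 1401 and neutrophils 304 of 1401 TNF- barcodes, and 592 and 181 of 5398 TNF+ barcodes. Of the pathway list, 6 of 41 genes were at least 2-fold higher and 1 lower in lung myeloid cells, namely Mmp14 (log2 ratio 3.56), Mmp2 (3.11), Src (2.22), Mmp12 (2.13), Trem2 (1.48), Relb (1.25) and Adam8 (-1.08).

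The synovium and the lung differed in how many of the 10 genes were found in a single barcode. Barcodes with a UMI of at least 5 of the 10 genes made up 82 of 4246 (1.93%, 1.54 to 2.39) in the TNF+ synovium, 3 of 6899 in the TNF- synovium, 219 of 11243 (1.95%, 1.70 to 2.22) in the TNF+ lung and 22 of 8555 (0.257%, 0.161 to 0.389) in the TNF- lung. The TNF+ shares were alike at 5 genes but not at 8, which 25 synovial and 0 lung barcodes reached. When each barcode was thinned to 5000 UMIs, the shares became 44 of 2617 (1.68%) in the TNF+ synovium, 12 of 8637 (0.139%) in the TNF+ lung and 0 in both TNF- libraries, which by the limit of 3 counts allows up to 0.0547% of 5480 synovial and 0.0494% of 6078 lung barcodes.

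**Figure D5:**
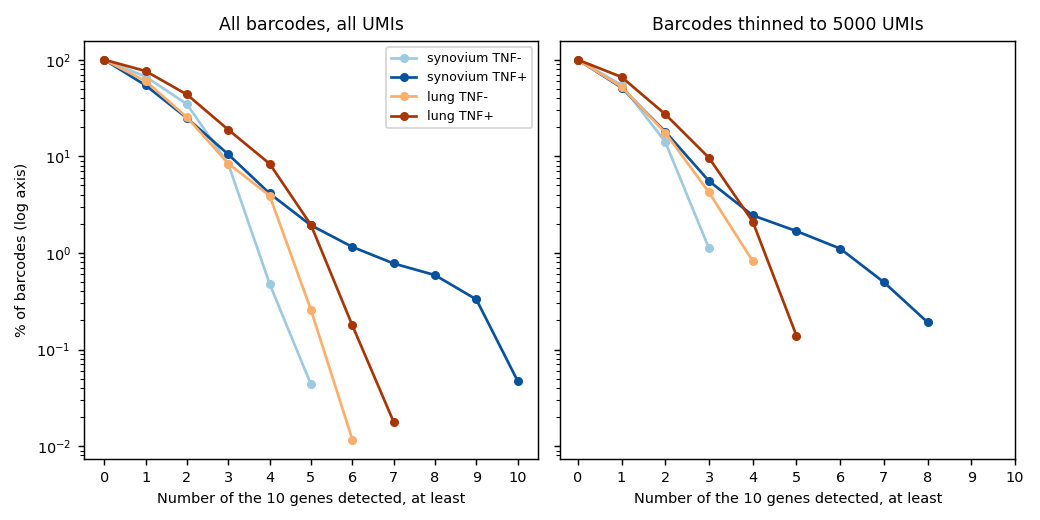
Share of barcodes (percent, logarithmic axis) in which at least the given number of the 10 genes had a UMI, in the 4 libraries, for all barcodes with all UMIs (left) and for barcodes thinned to 5000 UMIs (right). In the left panel barcodes with 8 to 10 genes occur only in the TNF+ synovium, where they number 25, and in the right panel that library's line also reaches furthest.

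Of the 82 TNF+ synovial barcodes, 44 were osteoclast-like, 16 fibroblasts, 13 cycling and 9 of other kinds. After thinning, 36 of 64 osteoclast-like and 0 of 536 fibroblast barcodes still reached 5 genes. Of the 219 TNF+ lung barcodes, 99 were alveolar macrophages (of 592, 16.7%) and 99 macrophages or monocytes, and after thinning 7 of 588 alveolar macrophages remained. The 82 synovial barcodes had a median of 39207 UMIs, 58 had over 5000 genes and 4 ranked as likely doublets. Of the 219 lung barcodes, 197 had over 5000 genes and 51 ranked as likely doublets.

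Which genes were found together differed between osteoclast-like cells and alveolar macrophages. Acp5 with Ctsk was found in 575 of 592 (97.1%, 95.4 to 98.3) TNF+ and 297 of 416 (71.4%, 66.8 to 75.7) TNF- alveolar macrophages, and in 59 of 102 (57.8%, 47.7 to 67.6) osteoclast-like barcodes. Acp5, Ctsk and Mmp9 together were found in 40 of 102 (39.2%, 29.7 to 49.4) osteoclast-like barcodes and 42 of 592 (7.10%, 5.16 to 9.47) TNF+ alveolar macrophages. Ocstamp with Dcstamp was found in 29 of 102 osteoclast-like barcodes and in 14 of 435 TNF- synovial dendritic barcodes. Oscar with Acp5 and Ctsk was found in 16 osteoclast-like barcodes and 5 TNF+ alveolar macrophages. Acp5, Ctsk and Atp6v0d2 were thus common to both kinds of cell. Mmp9, Ocstamp, Dcstamp, Itgb3 and Oscar were found in a larger share of osteoclast-like barcodes than of TNF+ alveolar macrophages. In the lung cluster led by H2-M2, 77 of 519 TNF+ barcodes held 5 or more of the 10 genes. Of these 77, 63 had Dcstamp, 25 Mmp9, 9 Itgb3, 4 Ocstamp and 1 Oscar, while 77 had Acp5, 73 Ctsk and 72 Atp6v0d2. The shares in osteoclast-like barcodes and alveolar macrophages are not at equal depth. Median UMIs were 24718 in osteoclast-like barcodes and 37923 in TNF+ alveolar macrophages, and 58 of the 102 osteoclast-like barcodes had a median of 1013.

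The upper limit of 5000 genes bore on these counts. Barcodes above it held 83.1% of Acp5, 77.9% of Ctsk, 93.4% of Mmp9 and 89.5% of Oscar UMIs of the TNF+ synovium. The limits of the study (200 to 5000 genes and at most 20% mitochondrial UMIs) would keep 23 of the 82 barcodes with 5 or more genes, 2990 of 18230 Acp5 UMIs and 698 of 11165 Mmp9 UMIs.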

How the data were processed

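The authors deposited raw UMI counts per gene and barcode, made with Cell Ranger 7.0.1 against mm10 per the submitters' processing notes, for called cells. By default that version also counts intronic reads. Of 32285 genes, 32235 were found by identifier in GENCODE vM21 (GRCm38), which gave positions.

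The libraries of each tissue were clustered jointly with scanpy 1.11.5 and leidenalg 0.10.2 in Python 3.11.15 (10000 UMIs per barcode, 2000 variable genes without the 10 genes and the pathway list, 30 components, 20 neighbours, resolution 0.8). No barcode was removed, and no doublets beyond the alternatives below. Clusters were named where at least 4 markers of a type had a level 2-fold that of other clusters and were found in 10% of barcodes. A cluster with more markers of another type among its top 10 genes, or a median depth under the library's by a factor of 3 and no marker there, stayed unnamed. The osteoclast-like cluster comes from resolution 2.0. That choice and the naming thresholds were made after the data were seen, and names may differ from the study's. The 10 genes, the pathway list and the markers were chosen with earlier results of these data known, and 1 gene of the pathway list is not reported here or counted.

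UMIs were summed per library and cell type and given as CPM. CPM carries an exact Poisson, a share an exact (Clopper-Pearson) binomial and a ratio a conditional binomial interval at 95%, for counting error only. Genes needed 20 UMIs over both libraries and types 50 barcodes in each. A ratio against 0 used a floor of 3 UMIs in that library, and the upper limit beside a share of 0 is 3 counts of its total, in place of the exact interval. Thinning drew 5000 UMIs per barcode and left shallower barcodes out. The scripts were tested on simulated data. Pathway genes were named at a 2-fold difference, at most 4 per role and comparison, likeness by the 3 highest correlations and genes beside the 10 by the 15 largest ratios. Alternatives were the limits of the study, mitochondrial limit alone, removal of the highest Scrublet scores (a share that grew with library size), median scaling, per-cell means, other UMI minimums, other clusterings, thinning and other numbers of genes.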

Additional observations from a re-analysis of the deposited data

Results flagged for a closer look

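Of the 10 genes, 4 differed between genotypes in opposite directions in the myeloid cells of the tissues, with intervals on either side of 0. The difference between tissues was not tested, since each group is 1 library. Mmp9 had a log2 ratio of 5.13 in synovial and -0.51 in lung myeloid cells. Nfatc1 had 1.64 and -0.50, and Atp6v0d2 7.71 and -0.34. Dcstamp went the other way, with -1.47 in the synovium and 2.49 in the lung. The median of all genes was -0.23 in synovial and -0.16 in lung myeloid cells. For Mmp9 and Atp6v0d2 the lung sign was not that of the macrophages or monocytes (2.64 and 2.69) or, for Atp6v0d2, of the alveolar macrophages (0.40). Without the osteoclast-like cluster synovial Mmp9 was at -0.64, the same sign as in the lung. Neutrophils were 27 of those 696 TNF- and 23 of those 1124 TNF+ synovial myeloid barcodes, and their part was not tested.

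Within dendritic cells, Dcstamp had a log2 ratio of -1.39 in the synovium and 2.81 in the lung. Over whole libraries, Itgb3 had -0.31 in the synovium and 0.42 in the lung. The median of all genes was -0.18 and -0.32 in those comparisons. These differences were not tested either.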

How the results depend on the processing

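No paired analysis was possible because each group is 1 library. Under the limits of the study, 3 in place of 8 genes were at least 2-fold higher in synovial myeloid cells and 1 in place of 4 in the whole lung (Dcstamp), and the shares of barcodes with 5 or more genes were 0.730% (TNF+ synovium) and 0.240% (TNF+ lung). Itgb3 in synovial myeloid cells then reversed, to a log2 ratio of -0.16. That setting took away 9 of 22 calls and gave no value for 4 ratios (Oscar and Calcr). It removes barcodes by construction, as counted in the report. The synovial myeloid count was also 3 without the osteoclast-like cluster, and 3 with each library clustered by itself. There, 71 of the 102 osteoclast-like barcodes joined a cluster of 120 named as cycling, outside the myeloid class. The synovial share was 4.12% at 4 or more genes, 1.15% at 6 or more and 0.917% without the osteoclast-like cluster. The lung share was 8.38% and 0.178% at those numbers of genes, 1.64% without doublet-ranked barcodes and 0.139% thinned. Scaling to the median of all genes gave 6 genes in the whole lung, with Mmp9 and Atp6v0d2 added. Removal by mitochondrial share, removal of doublet-ranked barcodes and median scaling took away 0 of 25 calls (ratios past 2-fold whose interval left out 0, so without Oscar in the whole lung, which median scaling moved from -1.04 to -0.72), and per-cell means 1 (Nfatc1, synovial myeloid cells).

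With 1 library per group, no spread between mice is known. Rare genes limit precision: Oscar had 15 to 27 UMIs in 3 libraries, and Ocstamp 24 in the TNF- lung.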

Other observations

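The 49 TNF+ synovial myeloid barcodes with 5 or more of the 10 genes held other genes that were rare in the remaining 1177. The largest ratio was that of Mt3, a metallothionein, at 1497 and 0.589 CPM (log2 ratio 11.31), found in 27 of the 49. Rufy4 (9.09), the receptor kinase gene Mst1r (8.88), Rab38 (7.77), Dgki (7.38), Kbtbd11 (7.36), Plxna4 (6.13), Car2, the carbonic anhydrase that supplies protons for resorption (6.09), Coq8a (6.06), Spns2 (6.05), the sodium and proton exchanger gene Slc9b2 (5.96), Adcy3 (5.96), Zfp462 (5.84), Cyp2s1 (5.83) and Gm19705 (5.68) followed. The barcodes were chosen by their osteoclast genes, so these values are a description.

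Over 47 profiles of library and cell type, which share libraries and depth, each gene was set against all others by Pearson's r of log2(CPM + 1), as a description. Calcr was most like Myf5 (0.934), Myod1 (0.924) and Cdh15 (0.898), which are genes of muscle stem cells. Atp6v0d2 was most like Tfec (0.878), Ltc4s (0.791) and F7 (0.791), and Dcstamp like Ccl9 (0.830), Gm20703 (0.795) and Mcub (0.777). Ctsk was most like Clcn7 (0.716), Spp1 (0.694) and Hsd3b7 (0.693), and Ocstamp like Slc37a2 (0.710), Matk (0.693) and Atp6v0c (0.681). Mmp9 was most like Gm19705 (0.722), S100a8 (0.683) and Pla2g7 (0.673), and Oscar like Pheta1 (0.657), Slc9b2 (0.626) and Mt3 (0.620). Acp5 (Tmem192 0.781, 1110008P14Rik 0.751, Mrpl43 0.745), Nfatc1 (Eapp 0.794, Bbip1 0.793, Yy1 0.784) and Itgb3 (Ormdl3 0.710, Max 0.692, Chac2 0.687) had broadly expressed genes nearest.

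In Schwann cell-like barcodes of the TNF+ synovium, 187 Acp5 UMIs lay in 10 of 241 barcodes, and 1 barcode held 7 of the 10 genes.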
